A study of Danio rerio with 12 samples.

Results

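Genes for the extracellular matrix and for the enzymes that hydroxylate collagen were followed through zebrafish gastrulation, with and without the T-box factors Ta and Tbx16. They were taken by symbol from the array's probe annotation: collagens (*col* and a number), laminins (*lama*, *lamb*, *lamc*), fibronectin (*fn1*), prolyl 4-hydroxylases (*p4ha*), lysyl hydroxylases (*plod*), lysyl oxidases (*lox*), hyaluronan synthases (*has* and a number), fibrillins (*fbn*), versican and *sparc*, leaving out *col2a1a* and *col8a1a*. This gave 52 of 13287 named genes and 124 of 45220 probes. Of the 52, 51 are matrix genes. The other, *cert1a*, encodes a ceramide transfer protein and entered through its old array symbol, which begins like that of a collagen. Each gene is given by its brightest probe (by mean over the 12 arrays), and 41 of the 52 genes had at least 1 further probe against which it was checked.

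Whole AB strain embryos were injected at the one-cell stage and collected at shield (6 hpf) or at 90% epiboly (9 hpf). Control MO embryos received 0.75 pmol of standard control morpholino. Double MO embryos received 0.5 pmol of *tbx16* and 0.25 pmol of *ta* morpholino. Each of the 4 groups held 3 samples, and each sample was RNA from about 200 pooled embryos on its own array. An MO acts on the translation or the splicing of a transcript, so the level of the targeted transcripts does not test the knockdown: the *tbxta* (*ta*) group means were 10.37 in control MO and 11.56 in double MO embryos at shield on the log2 scale. Values throughout are log2 intensities, so a difference of 1 is a doubling of the signal.

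The matrix is laid down outside the cell as a basement membrane of laminin and type IV collagen and as fibrils of fibronectin and collagen. Collagen chains fold into a stable triple helix only after prolyl 4-hydroxylase has modified them in the endoplasmic reticulum. Lysyl hydroxylases and, outside the cell, lysyl oxidases prepare and form the crosslinks. In the gastrula, fibronectin and laminin line the surfaces between germ layers on which mesoderm and endoderm cells migrate, and hyaluronan supports the convergence of lateral cells.

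The arrays had medians from 7.06 to 7.07, and samples of a group correlated at 0.966 to 0.99. Of 6 shield markers, *ndr1*, *mixl1* and *sox32* fell to 90% epiboly in control MO embryos and 3 fell in double MO embryos, with none higher. Of 6 measured markers of segmentation onset and neural tissue, 4 rose with stage in control MO embryos (*cdx4*, *myf5*, *myod1* and *neurog1*) and *foxd3* fell, while in double MO embryos 0 rose and 1 fell. Paraxial mesoderm markers were lower in double MO embryos for 6 of 7 measured genes at shield and for 7 of 7 at 90% epiboly. Their mean level was 9.32 to 9.85 in control MO samples and 6.93 to 7.19 in double MO samples at shield, and 9.35 to 9.86 against 6.64 to 6.74 at 90% epiboly. In these whole-embryo samples, fewer cells of a type and less RNA per cell cannot be told apart.

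Loss of Ta and Tbx16 left most matrix genes without a detected change and lowered a few, chiefly prolyl 4-hydroxylases and fibronectin. At shield, 1 of the 52 genes was lower in double MO embryos (*p4ha2*) and 0 were higher, at an adjusted p under 0.05 in limma. That is 1.92% lower, against 0.263% of all named genes lower and 0.286% higher. Of the 124 member probes 3 passed, against 0.484% of all probes. At an unadjusted p under 0.05, 5 of the 52 genes were higher and 5 were lower. No share of all named genes at this unadjusted threshold is given, so unadjusted counts here and below only describe the genes counted. The median change of the 52 genes was -0.04, with 0.02 over all named genes. At 90% epiboly, 3 genes were lower (*fn1b*, *p4ha1b* and *p4ha2*) and 0 were higher. That is 5.77% lower, against 0.572% of all named genes lower and 0.218% higher, and 8 of the 124 member probes passed, against 0.705% of all probes. At an unadjusted p the members gave 6 lower and 1 higher. The median change of the members was -0.14, with 0.01 over all named genes. These counts are of few genes, and the 90% epiboly count fell to 0 when any of 90% control MO 1, 2 or 3 or 90% double MO 1 or 2 was left out, and to 1 without 90% double MO 3 or shield double MO 3.

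**Figure D1:**
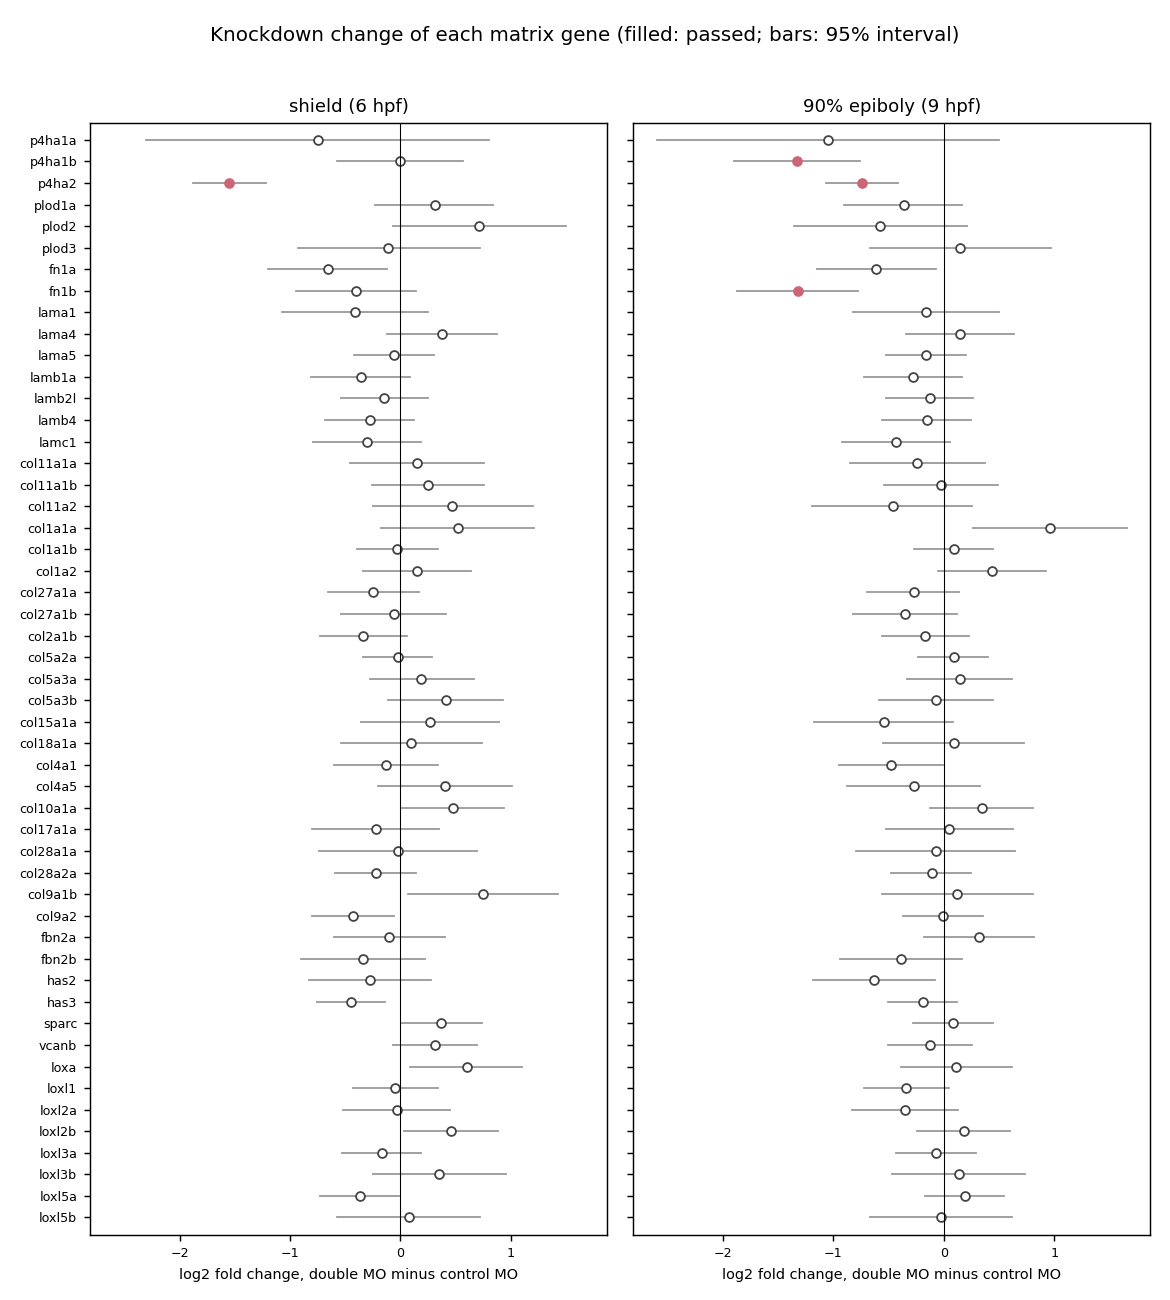
Log2 fold change of double MO minus control MO embryos for the 51 matrix genes (brightest probe, rows by family), at shield on the left and 90% epiboly on the right. Circles are estimates from limma over 3 samples a group, bars are 95% confidence intervals, and filled circles passed an adjusted p of 0.05: *p4ha2* on the left, and *p4ha1b*, *p4ha2* and *fn1b* on the right.

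*p4ha2*, a catalytic alpha subunit of collagen prolyl 4-hydroxylase, had the largest fall of any member at shield. Control MO samples 1 to 3 measured 10.45, 10.20 and 10.42, and double MO samples 8.92, 8.72 and 8.79. The groups did not overlap, and the gap was many times the spread within either. The mean was 2.93-fold lower in double MO embryos (10.36 ± 0.13 against 8.81 ± 0.10, SD, n = 3; log2 fold change -1.55, SE 0.15, limma adjusted p = 0.000121). The other 2 probes gave -1.51 (SE 0.21, adjusted p = 0.00389) and -1.46 (SE 0.26, adjusted p = 0.021). Leaving out any single array kept the call of the first 2 probes. The last lost it without shield control MO 1 (adjusted p = 0.0566), shield control MO 3 (0.0711), shield double MO 2 (0.0936) or shield double MO 3 (0.0854). With the 6 shield arrays fitted alone in limma, the brightest probe kept its call and the other 2 lost it (adjusted p = 0.0871 and 0.203).

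At 90% epiboly *p4ha2* was still lower, by less. Control MO samples measured 10.47, 10.64 and 10.38 and double MO samples 9.59, 9.86 and 9.82, again without overlap. The log2 fold change was -0.74 (SE 0.15, adjusted p = 0.0443). This call was a narrow one, since the other 2 probes gave -0.64 (adjusted p = 0.453) and -0.55 (adjusted p = 0.902). It was lost when any array but shield control MO 1 was left out, with adjusted p from 0.0487 to 0.249 over the 12 arrays left out in turn. In double MO embryos the gene rose between the stages by 0.95 (SE 0.15, adjusted p = 0.00156), with 0.90 and 0.86 on the other probes, both past the threshold. In control MO embryos it changed by 0.14 (adjusted p = 0.633). The difference between the stages in the knockdown change, 0.81 (SE 0.22), did not pass (adjusted p = 0.475).

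*p4ha1b*, another alpha subunit gene, had the opposite timing in its estimates. At shield the control MO samples measured 7.55, 7.15 and 8.09 and the double MO samples 7.28, 8.06 and 7.46, fully intermixed, with a change of 0.00 (SE 0.26, 95% interval -0.57 to 0.57). At 90% epiboly they measured 7.94, 8.06 and 8.54 against 6.61, 6.92 and 7.02, with every double MO sample below every control MO sample. The level was 2.52-fold lower (log2 fold change -1.33, SE 0.26, adjusted p = 0.0346), and the second probe gave -1.12 (SE 0.23, adjusted p = 0.0428). The call on the brighter probe was lost without shield double MO 3 (adjusted p = 0.0527) or without 90% control MO 1 (0.0613), 2 (0.111) or 3 (0.184) or 90% double MO 1 (0.177), 2 (0.119) or 3 (0.0877), and that on the second without any array but shield control MO 1 or 3 (up to 0.215). The difference between the stages, -1.33, did not pass (SE 0.37, adjusted p = 0.583).

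*p4ha1a*, the third alpha subunit gene, did not pass at either stage. At shield its double MO samples (8.05, 8.56 and 9.06) all lay below the control MO samples (9.39, 9.19 and 9.33), with a change of -0.75 (SE 0.72, adjusted p = 0.819), and -0.82 on the second probe (adjusted p = 0.477). The SE of 0.72 is pooled over all 12 arrays and does not measure the shield spread alone. On this brightest probe the SDs of control MO and double MO samples were 0.10 and 0.50 at shield, and 0.88 and 1.99 at 90% epiboly. At 90% epiboly the control MO samples measured 8.88, 10.25 and 10.51 and the double MO samples 6.53, 9.96 and 10. The estimate of -1.05 rested on double MO sample 1 and was 0.10 without it.

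The lysyl hydroxylases, which act on the same chains, did not pass in either knockdown comparison, with 0 of 3 brightest probes at an unadjusted p too. *plod1a* changed by 0.31 at shield and by -0.36 at 90% epiboly, *plod2* by 0.71 and -0.58, and *plod3* by -0.11 and 0.15. For *plod2* the shield samples measured 9.70, 9.55 and 10.20 in control MO and 11.09, 10.14 and 10.36 in double MO embryos, and the 90% epiboly samples 10.88, 9.93 and 9.79 against 10.38, 9.13 and 9.35. For *plod3* they measured 9.29, 10.50 and 9.57 against 8.75, 10.46 and 9.83, and 10.43, 10.49 and 10.80 against 11.10, 10.58 and 10.49. On these probes treatments overlapped for both genes at both stages. On probe 2 of *plod2* every double MO sample lay below every control MO sample at both stages, without passing. The group means were 5.8 in control MO and 5.63 in double MO embryos at shield, and 6.41 and 5.76 at 90% epiboly. At shield this was opposite in direction to the 0.71 on the brightest probe. All samples of probe 2 were dim, at 6.55 or less, so how much of that signal is background is not known. For *plod1a*, treatments overlapped at shield on all 4 probes. At 90% epiboly every double MO sample lay below every control MO sample on all 4 probes, without passing. The group means there were 8.45 in control MO and 7.77 in double MO embryos on probe 2, 7.20 and 6.59 on probe 3, and 6.88 and 6.44 on probe 4. The dimmer probes of *plod2* and *plod3* passed only with stage in control MO embryos, *plod2* on 1 probe (0.61, adjusted p = 0.0151) and *plod3* on 2 (0.91 and 0.69, adjusted p = 0.0297 and 0.0438). *plod1a* rose with stage in control MO embryos, from 8.65, 9.69 and 8.88 to 10.40, 10.39 and 10.39. The rise was 1.32 (SE 0.25, adjusted p = 0.00355), and 3 of its 4 probes passed. Its double MO samples went from 9.50, 9.55 and 9.08 to 10.35, 9.94 and 9.80, without overlap and without passing (0.65, adjusted p = 0.103), while 1 of the 3 dimmer probes passed (0.85, adjusted p = 0.00839).

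**Figure D2:**
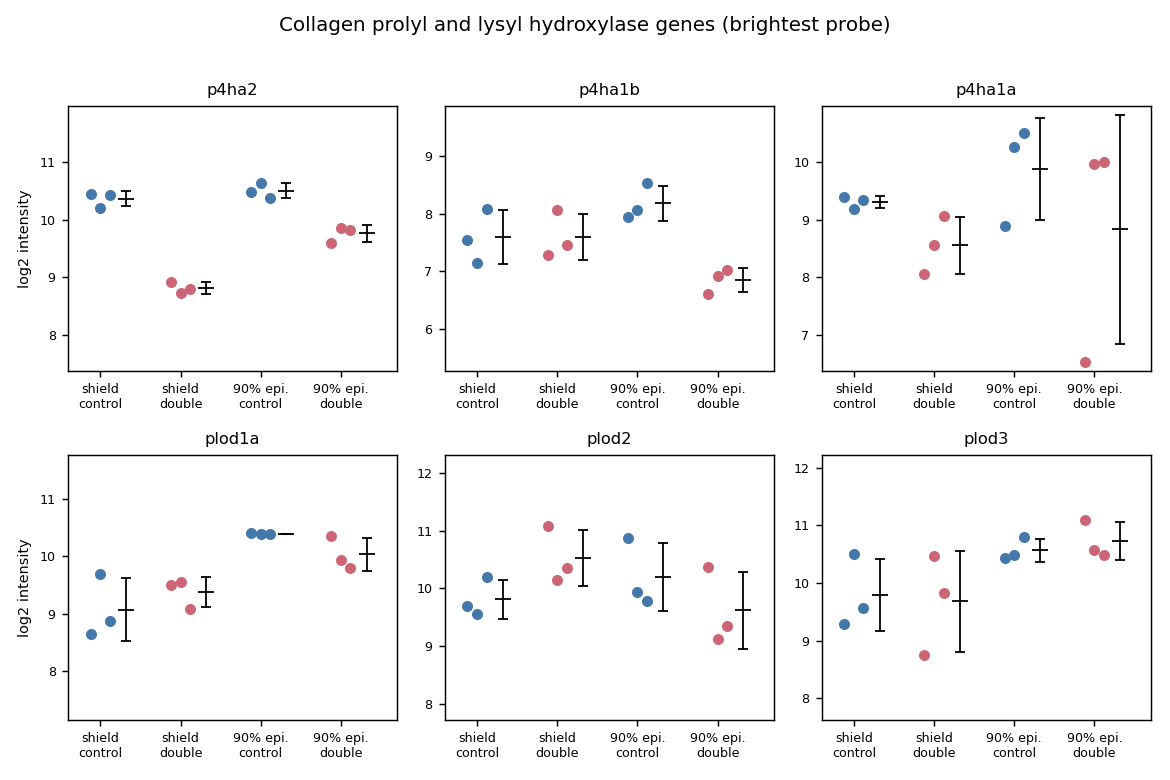
Log2 intensity of the 6 hydroxylase genes (brightest probe) in each sample, with control MO in blue and double MO in red; points are samples 1 to 3 of a group from left to right, and the black bar beside them is the mean ± SD. All panels span the same range of log2 units. The double MO samples of *p4ha2* at shield sit between 8.72 and 8.92, below all control MO samples, and those of *p4ha1b* are below the controls at 90% epiboly only; *p4ha1a* has a 90% double MO sample at 6.53.

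Fibronectin is encoded by *fn1a* and *fn1b* in zebrafish, and its fibrils surround the presomitic mesoderm and the migrating precardiac and endodermal cells. All 4 probes of *fn1b* were lower in double MO embryos at 90% epiboly. On its brightest probe the control MO samples measured 10.24, 10.23 and 10.18 and the double MO samples 8.93, 8.42 and 9.32. The control samples were tightly grouped and all above the double MO samples (log2 fold change -1.32, SE 0.25, adjusted p = 0.0249). On probe 2 the samples measured 8.56, 8.47 and 8.09 against 5.93, 6.25 and 5.94, a difference of -2.33 (SE 0.22, adjusted p = 4.58e-05). Probes 3 and 4 both gave -1.64 (SE 0.28, adjusted p = 0.0096, and SE 0.16, adjusted p = 4.38e-05). On these 3 probes every 90% double MO sample lay under 6.56, the 40th percentile of all probes. This cut marks dim probes and is not a measured background, so how much of such signal is background is not known. The estimates on these 3 probes are thus differences in signal and give no exact fold for the transcript. Calls on probes 2 and 4 held whichever array was left out. That on the brightest was lost without 90% control MO 1 (adjusted p = 0.1), 2 (0.117) or 3 (0.092) or 90% double MO 1 (0.0889) or 2 (0.142), and that on probe 3 without 90% control MO 3 (0.0661) or 90% double MO 3 (0.0539).

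At shield none of the 4 *fn1b* probes passed, with changes of -0.40, -0.37, -0.04 and -0.33. The brightest measured 9.42, 9.64 and 9.78 in control MO and 9.65, 8.70 and 9.28 in double MO samples, which overlapped. In the test of the difference between the stages, the brightest probe, which was well above the dim range in all groups, did not pass (-0.92, SE 0.36, adjusted p = 1). Probe 2 gave -1.96 (SE 0.31, adjusted p = 0.0118) and probe 4 gave -1.31 (SE 0.22, adjusted p = 0.018). On probes 2 and 4 the shield means were already dim in both treatments (6.42 and 6.04, and 5.82 and 5.49), so a fall at shield might not have shown on them, and a stage difference in the knockdown change is not established by these 2 probes. These were 2 of the 124 member probes that passed this test, against 0.287% of all probes. Probe 3 gave -1.60 (adjusted p = 0.286). By brightest probe, 0 of the 52 genes passed this limma test, against 0.0978% of all named genes in the positive and 0.113% in the negative direction, and 5 had an unadjusted p under 0.05. With all probes of a gene averaged, *fn1b* was the 1 member that passed (-1.45, adjusted p = 0.00573), a mean that includes the dim probes. Probe 2 lost the call without 90% control MO 2 (-1.91, adjusted p = 0.0532). Probe 4 lost it without any of 9 arrays (all but shield control MO 1 and 3 and shield double MO 1), at adjusted p from 0.0511 to 0.0779.

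Along time, in control MO embryos the *fn1b* signal rose from shield to 90% epiboly by 1.96 (adjusted p = 0.000153), 1.38 (0.00538) and 1.58 (5.58e-05) on probes 2, 3 and 4, and by 0.60 (0.147) on the brightest. In double MO embryos the changes were 0.00, -0.22, 0.28 and -0.32 in that order, and none passed. On these 3 probes the shield samples and the 90% double MO samples lay between 5.34 and 6.72, so how much of that signal is background is not known.

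*fn1a* gave a smaller fall. On its brighter probe the double MO samples lay below all control MO samples at both stages without passing, with changes of -0.66 at shield (adjusted p = 0.435) and -0.61 at 90% epiboly (adjusted p = 0.754). The shield samples measured 9.63, 9.88 and 9.48 in control MO and 8.37, 9.40 and 9.23 in double MO embryos, and the 90% epiboly samples 10.72, 10.73 and 10.19 against 10.04, 10.03 and 9.74. On the second probe the 90% epiboly samples measured 10.07, 9.89 and 10.25 in control MO and 8.97, 9.07 and 8.90 in double MO embryos. These groups did not overlap, and the change was -1.10 (SE 0.18, adjusted p = 0.0079), lost without 90% control MO 3 (0.0565) or 90% double MO 3 (0.0555). Unlike *fn1b*, *fn1a* rose with stage in both treatments. The rise was 0.89 in control MO and 0.94 in double MO embryos on the brighter probe (adjusted p = 0.0342 and 0.0268; lost without shield control MO 1 or 3 or 90% control MO 1 or 2, up to 0.124, and without shield double MO 1 or any 90% double MO sample, up to 0.086), and 2.50 and 1.82 on the second (adjusted p = 6.16e-06 and 5.13e-05).

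**Figure D3:**
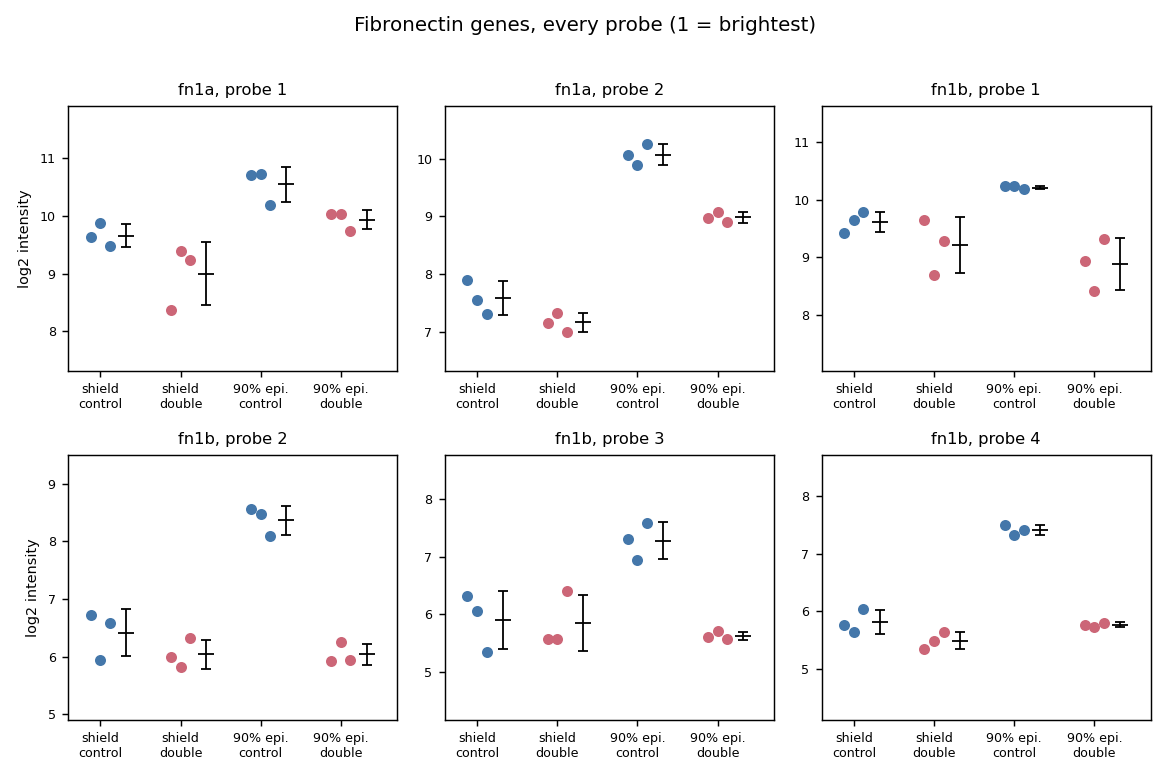
Log2 intensity of *fn1a* (2 probes) and *fn1b* (4 probes) in each sample, with control MO in blue and double MO in red; points are samples 1 to 3 of a group from left to right, and the black bar is the mean ± SD. All panels span the same range of log2 units. On every *fn1b* probe the 90% epiboly control MO samples stand above the double MO samples, while on *fn1a* both treatments are higher at 90% epiboly than at shield.

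The falls in *p4ha2*, *p4ha1b* and *fn1b* were seen in the samples in which paraxial mesoderm markers were low, and the part of that tissue in them was not tested. The markers of segmentation onset and neural tissue also had a lower mean level in double MO than in control MO samples at 90% epiboly. Their mean level was 7.82 to 8.41 in control MO and 7.88 to 8.04 in double MO samples at shield, and 8.73 to 9.12 against 8.19 to 8.42 at 90% epiboly, where *cdx4*, a caudal homeobox gene of the posterior body, was changed by -1.66 (adjusted p = 0.0265) and 3 of the 6 had an unadjusted p under 0.05. At shield 0 of the 6 passed in limma, with 1 at an unadjusted p. In double MO embryos the mean level of these markers was higher at 90% epiboly than at shield, while no *fn1b* probe passed with stage there. The part of these markers in the *fn1b* values was not tested. At 90% epiboly the notochord list had a median change of -0.42, beside -0.41 for the segmentation and neural list. At shield the endoderm list had -0.41, beside 0.12 for the segmentation and neural list. For the notochord, 0 of 5 genes passed at either stage in limma (2 and 3 at an unadjusted p under 0.05), with mean levels of 8.53 to 9.09 in control MO and 8.28 to 8.69 in double MO samples at shield, and of 9.05 to 9.33 against 8.61 to 8.84 at 90% epiboly. For the endoderm, 0 of 4 passed at either stage (2 and 0 at an unadjusted p), with mean levels of 10.09 to 10.39 against 9.46 to 10.11 at shield and 10.14 to 10.47 against 9.89 to 10.09 at 90% epiboly. Of 4 genes of the p53 response, which an MO can raise as a side effect, 0 passed at either stage (0 and 1 at an unadjusted p), with mean levels of 9.83 to 9.88 against 9.81 to 10.10 and 9.26 to 9.34 against 9.39 to 9.59. Of the enveloping layer (6 genes), yolk syncytial layer (3) and epidermis (4) lists 0 genes passed at either stage (0 at an unadjusted p at shield, and 1, 1 and 0 at 90% epiboly), and of the neural plate list (5 genes) only *zic2a* did, lower at shield by 1.18.

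The laminins passed on no probe in either knockdown comparison, and 0 of the 7 brightest probes had an unadjusted p under 0.05. The 7 genes had a median change of -0.28 at shield (range -0.41 to 0.38) and of -0.16 at 90% epiboly (range -0.43 to 0.15), and 6 of the 7 estimates were negative at each stage. *lama1*, *lamb1a* and *lamc1* encode the chains of laminin-111, the main laminin of the early embryo, which zebrafish need for notochord differentiation. *lamb1a* changed by -0.36 at shield (95% interval -0.81 to 0.09) and by -0.28 at 90% epiboly (-0.72 to 0.17). *lamc1* changed by -0.30 (-0.79 to 0.19) and -0.43 (-0.92 to 0.06), and *lama1* by -0.41 (-1.07 to 0.25) and -0.16 (-0.82 to 0.50). These intervals leave room for falls of the size of that of *p4ha2* at 90% epiboly in every case but *lamb1a* at 90% epiboly. On both dimmer probes of *lama1* the double MO samples lay below all control MO samples at both stages, without passing. Probe 2 had means of 8.10 in control MO and 7.33 in double MO embryos at shield, and of 9.05 and 8.48 at 90% epiboly. Probe 3 had means of 6.39 and 5.81, and of 6.92 and 6.56.

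With stage, *lamb1a* and *lama1* rose in both treatments and *lamc1* did not pass in either. *lamb1a* went from 11.19, 11.23 and 11.52 to 12.36, 12.39 and 12.25 in control MO samples, and from 11.45, 10.80 and 10.62 to 11.90, 12.25 and 12.02 in double MO samples. Stages did not overlap in either treatment, and the rise was 1.02 (SE 0.21, adjusted p = 0.0059) and 1.10 (SE 0.21, adjusted p = 0.00405), with all 3 probes past the threshold in both. *lama1* went from 8.65, 7.48 and 7.82 to 8.66, 9.49 and 9.74 in control MO samples and from 7.78, 7.62 and 7.31 to 9.24, 8.94 and 9.23 in double MO samples, the first only just without overlap. It rose by 1.31 (SE 0.31, adjusted p = 0.0127) and 1.57 (SE 0.31, adjusted p = 0.00509), with 2 of its 3 probes past the threshold in control MO and all 3 in double MO embryos. The first of these was lost without shield control MO 2 (1.06, adjusted p = 0.0541) or 3 (1.23, 0.0555) or 90% control MO 2 (1.22, 0.0544) or 3 (1.09, 0.0686). *lamc1* went from 9.98, 10.54 and 10.21 to 11.19, 10.97 and 10.47 in control MO samples, where the stages overlapped, and from 9.88, 10.03 and 9.91 to 10.43, 10.82 and 10.09 in double MO samples, where they did not. Its changes of 0.64 and 0.50 did not pass (adjusted p = 0.0868 and 0.171). *lama5*, the alpha chain of laminin-511, overlapped in all groups, at 6.35, 6.27 and 6.49 in control MO and 6.0, 6.48 and 6.44 in double MO samples at shield and at 6.37, 6.03 and 6.21 against 6.06, 6.05 and 6.03 at 90% epiboly. All these *lama5* samples lay in the dim range under 6.56. With stage, *lama5*, *lamb2l* and *lamb4* changed by -0.26 to 0.12. *lama4*, a chain of vascular laminins, fell in double MO embryos from 6.25, 7.15 and 6.92 to 5.99, 6.16 and 5.89, by 0.76 (adjusted p = 0.0432), and went from 6.07, 6.67 and 6.45 to 5.73, 6.04 and 5.80 in control MO samples (-0.54, adjusted p = 0.153). That call has 1 probe behind it and was lost without shield control MO 3, shield double MO 2 or 3, 90% control MO 2 or 3 or any 90% double MO sample (adjusted p up to 0.148). All 90% epiboly samples of *lama4* lay under 6.56, the 40th percentile of all probes, so how much of their signal is background is not known.

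Over the whole group, stage moved more genes than the knockdown did. In control MO embryos 10 of 52 genes were higher at 90% epiboly and 2 were lower (19.2% and 3.85%, against 7.2% and 8.29% of all named genes), with a median change of 0.17 against 0.02, and 31 of the 124 probes passed, against 12.8% of all probes. In double MO embryos 8 were higher and 4 lower (15.4% and 7.69%, against 7.89% and 8.23%), with a median of 0.06 against -0.01, and 25 of the 124 probes passed, against 13.1%. The lower counts were thus near or below the background, and the higher counts above it. Single arrays moved these counts: the first fell from 12 to 7 without shield control MO 3, and the second from 12 to 7 without 90% double MO 2 and to 6 without 90% double MO 3. The genes that passed in only 1 of the treatments are not shown to differ between them, since by brightest probe no member passed the test of that difference.

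The 22 collagens moved with stage in both directions. *col15a1a*, a collagen of the basement membrane zone, rose in control MO embryos from 7.78, 8.77 and 8.15 to 9.92, 9.68 and 9.88. The stages were well separated, by 1.59 (SE 0.29, adjusted p = 0.00307), and all 3 probes passed. In double MO embryos the values went from 8.21, 9.22 and 8.08 to 9.34, 9.38 and 9.13, where shield sample 2 overlapped with the later stage (0.78, adjusted p = 0.0971; 1.13 on the second probe, adjusted p = 0.0242). At 90% epiboly its double MO samples all lay below the control MO samples, by 0.54, without passing (adjusted p = 0.976). The second probe gave -1.19, also without overlap (adjusted p = 0.137), and the third gave -0.52 with an overlap (adjusted p = 0.875). Neither passed.

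Among the fibrillar collagens, *col2a1b*, a type II collagen gene, went from 8.0, 8.27 and 7.73 to 8.62, 8.89 and 8.77 in control MO samples and from 7.61, 7.90 and 7.48 to 8.77, 8.58 and 8.43 in double MO samples. The stages did not overlap, and it rose by 0.76 in control MO and 0.93 in double MO embryos (adjusted p = 0.015 and 0.00522), on its brightest of 3 probes alone. Averaged over the probes, *col2a1b* gave 0.36 and 0.43 (adjusted p = 0.184 and 0.0976). The control MO call was lost without shield control MO 3 (0.62, adjusted p = 0.0716) or 90% control MO 2 (0.69, 0.0658) or 3 (0.76, 0.0529). *col27a1a*, which the zebrafish notochord needs, went from 7.49, 7.94 and 7.69 to 8.20, 8.39 and 8.56 and from 7.67, 7.61 and 7.10 to 8.15, 7.94 and 8.23, also without overlap. It rose by 0.68 and 0.65 (adjusted p = 0.0338 and 0.0408), of which the first was lost without shield control MO 1 or 3 or 90% control MO 2 or 3 (adjusted p up to 0.134), and the second without shield double MO 2 or 3, 90% control MO 2 or any 90% double MO sample (up to 0.159). The second probe of *col27a1a* gave 0.67 in control MO (adjusted p = 0.0314) and 0.11 in double MO embryos (adjusted p = 0.766). *col1a2*, a type I collagen gene, rose in double MO embryos from 7.35, 7.15 and 7.12 to 8.09, 8.18 and 8.35, by 1.00 (adjusted p = 0.0123), lost without 90% double MO 3 (0.93, adjusted p = 0.0567), with a change of 0.71 in control MO embryos, from 6.51, 7.60 and 7.06 to 7.91, 7.59 and 7.79 with an overlap (adjusted p = 0.0601). The other 2 probes of *col1a2* did not pass in double MO embryos (0.73 and -0.08). *col1a1a*, its partner in the type I trimer, had the opposite estimates on its brightest probe alone, with -1.01 in control MO embryos (adjusted p = 0.0573) and -0.56 in double MO embryos (adjusted p = 0.288). Its other probes gave 0.30, -0.32 and 0.14 in control MO and 0.62, 0.29 and 0.12 in double MO embryos, none past the threshold. So an opposite movement of the type I genes is not established. The brightest *col1a1a* probe also had the highest estimate of any member in the 90% epiboly knockdown comparison, at 0.96 (SE 0.32, adjusted p = 0.467). Its control MO samples were at 7.68, 9.0 and 8.56 and its double MO samples at 9.27, 9.42 and 9.43. These groups did not overlap, yet the change did not pass over all probes.

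*col10a1a*, known from hypertrophic cartilage, rose in control MO embryos from 7.52, 8.02 and 7.60 to 8.82, 8.53 and 8.07, by 0.76 (adjusted p = 0.033), a call lost without shield control MO 1 (0.67, adjusted p = 0.0858) or 3 (0.70, 0.112) or 90% control MO 1 (0.59, 0.114) or 2 (0.73, 0.1). The other 3 probes of *col10a1a* gave 0.23, 0.19 and 0.17 with overlapping stages (adjusted p = 0.786, 0.81 and 0.802), and the mean of all 4 gave 0.34 (adjusted p = 0.546), so the rise rests on 1 probe. Double MO samples went from 8.22, 8.20 and 8.14 to 9.07, 8.53 and 8.86 on the brightest (0.63, adjusted p = 0.0703). On that probe every shield double MO sample lay above every shield control MO sample, without passing (0.48, adjusted p = 0.542). The other 3 probes gave -0.43, -0.14 and -0.41 in the shield knockdown comparison. *col17a1a*, the transmembrane collagen of hemidesmosomes, fell. Its control MO samples went from 9.27, 8.60 and 8.83 to 7.13, 8.08 and 7.94, and its double MO samples from 8.77, 8.88 and 8.38 to 7.82, 7.42 and 8.06. The stages did not overlap (-1.19, SE 0.27, adjusted p = 0.0106, and -0.91, SE 0.27, adjusted p = 0.0401). The other 2 probes of *col17a1a* showed no such fall (0.09 and 0.05 in control MO embryos), and the double MO call was lost without any of the 6 double MO arrays. *col4a5*, a basement membrane collagen, did not pass on its brightest probe (0.50 and -0.18), while its second probe rose by 1.20 and 1.08 (adjusted p = 0.000479 and 0.00101). Of the other bright members, *col5a3b*, of a type V collagen, changed by -0.29 to 0.41 and *col9a1b*, of a type IX collagen, by -0.70 to 0.75 over the 4 comparisons of groups, and *cert1a* by -0.42 to 0.30, and none passed. For the remaining collagens no brightest probe passed in any comparison.

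Outside the collagens, *has2*, the hyaluronan synthase that zebrafish gastrulae need for dorsal convergence, had the largest stage fall of any member. Control MO samples went from 10.94, 11.16 and 10.96 at shield to 9.94, 9.31 and 9.44 at 90% epiboly, and double MO samples from 10.55, 11.03 and 10.66 to 9.55, 8.48 and 8.77. Every later sample was below every earlier one. The fall was 2.75-fold in control MO embryos (-1.46, SE 0.26, adjusted p = 0.00244) and 3.52-fold in double MO embryos (-1.81, SE 0.26, adjusted p = 0.000666), and the second probe gave -1.41 and -1.95, both past the threshold. The knockdown comparison did not pass at either stage (-0.28 and -0.63, adjusted p = 0.811 and 0.745). *has3*, another synthase gene, measured 6.24, 6.27 and 6.15 in control MO and 5.76, 5.71 and 5.83 in double MO samples at shield, with no overlap and without passing (-0.45, adjusted p = 0.319), and 6.08, 6.03 and 6.20 against 5.73, 5.98 and 6.04 at 90% epiboly (-0.19).

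*fbn2b*, a fibrillin gene required in the zebrafish fin fold, rose about as far as any member by brightest probe. It went from 7.03, 7.10 and 7.45 to 8.48, 8.67 and 9.20 in control MO samples and from 7.06, 7.19 and 6.32 to 8.61, 8.54 and 8.05 in double MO samples. Both rises separated the stages fully, at 1.59 (SE 0.26, adjusted p = 0.00145) and 1.55 (SE 0.26, adjusted p = 0.00198), and both calls held on this probe whichever array was left out. The second probe passed in neither treatment, with 1.21 in control MO embryos, where the stages overlapped (adjusted p = 0.0683), and 0.94 in double MO embryos (adjusted p = 0.153). The knockdown changes on the brightest probe were -0.34 and -0.39, neither past the threshold.

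*sparc*, a collagen-binding matricellular protein gene, rose in control MO embryos from 6.09, 6.18 and 6.36 to 6.86, 7.05 and 7.15 (0.81, SE 0.17, adjusted p = 0.00668), with no overlap. Its double MO samples went from 6.54, 6.46 and 6.75 to 6.84, 7.24 and 7.24 (0.52, adjusted p = 0.0581), while its other 2 probes rose by 0.75 and 0.59 (adjusted p = 0.0178 and 0.0476). At shield every double MO sample lay above every control MO sample on the brightest probe, without passing in the knockdown comparison, and treatments overlapped on the other 2. The shield control MO samples lay under 6.56, the 40th percentile of all probes, as did every group mean of the other 2 probes. The *sparc* estimates are thus differences in signal and give no exact fold for the transcript. *vcanb*, a versican gene, fell by 0.65 in double MO embryos (adjusted p = 0.0282), from 9.93, 10 and 9.58 to 9.24, 9.22 and 9.09, and changed by -0.23 in control MO embryos, from 9.33, 9.74 and 9.51 to 9.11, 9.55 and 9.24 (adjusted p = 0.474). Its other 2 probes did not pass, and the call was lost without shield double MO 1 (-0.61, adjusted p = 0.0649) or 2 (-0.57, 0.0882) or 90% double MO 1 (-0.68, 0.0584), 2 (-0.67, 0.0705) or 3 (-0.61, 0.106). Of the 8 lysyl oxidase genes, 0 passed in any of the 5 limma comparisons (3 at an unadjusted p in the shield knockdown comparison and 1 in the difference between stages), and their brightest-probe estimates lay between -0.49 and 0.60. The highest, *loxa* at shield, had double MO samples of 8.99, 8.36 and 8.09 above control MO samples of 7.86, 8.05 and 7.74 (adjusted p = 0.461).

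**Figure D4:**
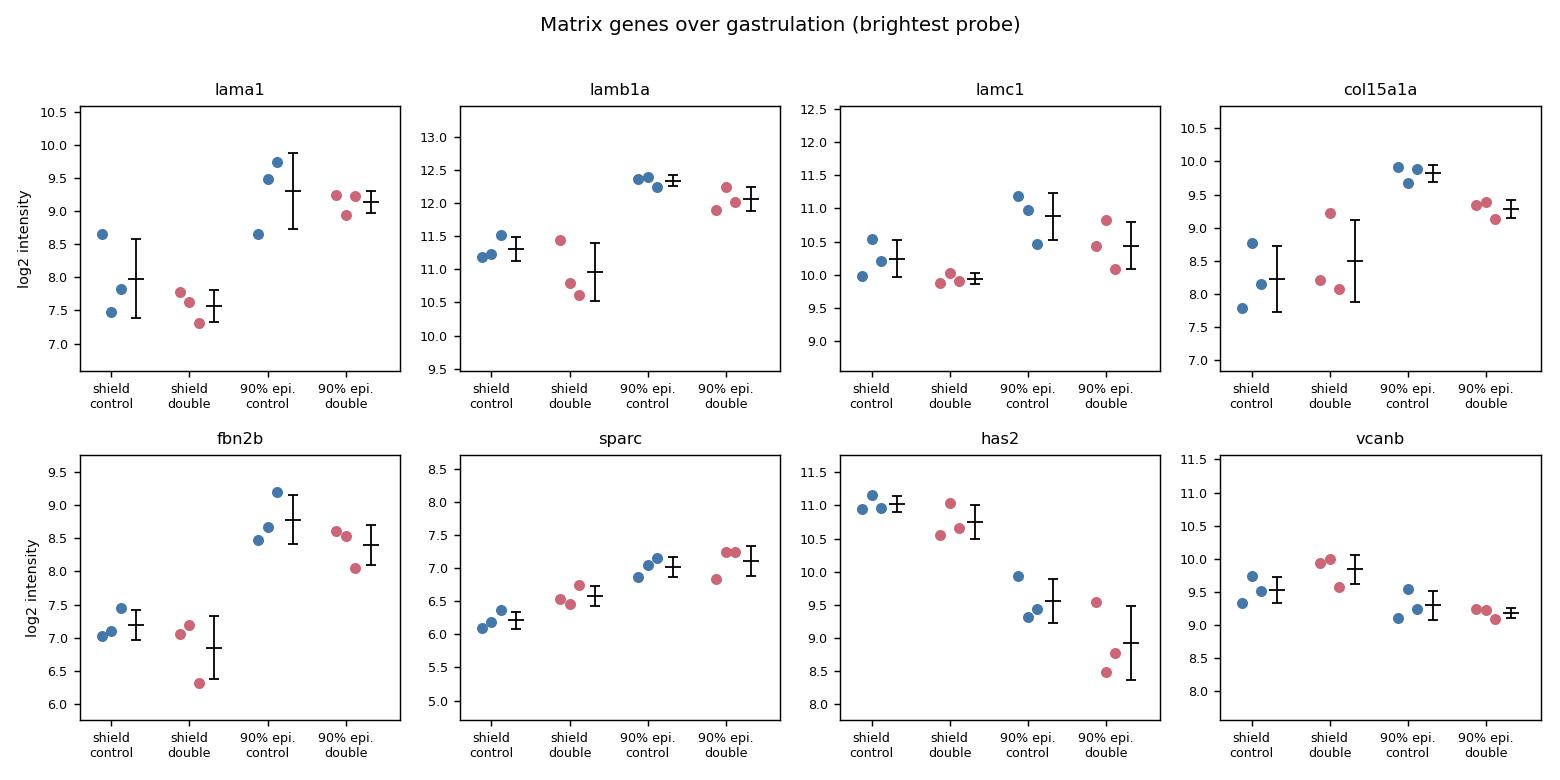
Log2 intensity of 8 matrix genes (brightest probe) in each sample at both stages, with control MO in blue and double MO in red; points are samples 1 to 3 of a group from left to right, and the black bar is the mean ± SD. All panels span the same range of log2 units. *lama1*, *lamb1a* and *fbn2b* are higher and *has2* lower at 90% epiboly in both treatments, while control MO and double MO samples of a stage overlap for these 4 genes on the probe shown.

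Partners of these genes were read from 5 further lists. Of 19 genes for the folding, glycosylation, secretion and processing of collagen, 0 passed in either knockdown comparison in limma (1 and 0 at an unadjusted p under 0.05), and the median changes were 0.07 and 0.19. They include *p4hb*, the beta subunit that pairs with the *p4ha* products, which changed by 0.25 and 0.30, and *serpinh1b*, the collagen chaperone Hsp47, which changed by -0.58 and -0.53. With stage in control MO embryos 2 of the 19 rose and 3 fell, against 7.2% and 8.29% of all named genes, and in double MO embryos 3 rose and 3 fell, against 7.89% and 8.23%. In control MO embryos *serpinh1b* rose by 1.84 (adjusted p = 0.00175) and *crtap*, of the prolyl 3-hydroxylation complex, by 1.48 (adjusted p = 0.00167). *p4hb* fell by 0.94 (adjusted p = 0.028), *fkbp10b*, a foldase, by 0.57 (adjusted p = 0.0438) and *sec23a*, of the vesicle coat that exports collagen, by 1.22 (adjusted p = 0.00699).

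Of 31 basement membrane and other matrix partners, 0 passed at shield (8 at an unadjusted p) and 1, lower, at 90% epiboly (against 0.263% and 0.572% of all named genes lower). This was *efemp2b*, which encodes the elastic fibre protein fibulin-4. Its control MO samples measured 11.18, 11.01 and 11.29 and its double MO samples 9.54, 9.62 and 9.42, far apart and each tightly grouped. The level was 3.11-fold lower (-1.63, SE 0.30, adjusted p = 0.0192), and all 4 probes passed, the others with -1.61, -1.12 and -1.61. On the brightest probe the call was lost without any of the 6 arrays of that stage, with adjusted p up to 0.101. At shield the *efemp2b* probes gave -0.87, -0.67, -0.61 and -0.92, none past the threshold, and treatments overlapped on the brightest alone. The difference between the stages in the knockdown change passed on none of these probes, so a fall particular to 90% epiboly is not established. With stage 8 of the 31 rose and 0 fell in control MO embryos (against 7.2% and 8.29% of all named genes), and 5 rose and 0 fell in double MO embryos (against 7.89% and 8.23%). In control MO embryos *nid1b*, a nidogen that links laminin to type IV collagen, rose by 1.57 (adjusted p = 0.00188), and *fbln1*, a fibulin, by 1.30 (adjusted p = 0.00339).

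Of 19 matrix receptors, *itgb5*, an integrin beta subunit, was lower in double MO embryos at both stages. At shield the samples measured 9.46, 9.13 and 9.17 against 8.04, 8.38 and 8.11, and at 90% epiboly 9.97, 9.64 and 9.72 against 8.25, 8.31 and 8.46. Neither pair of groups overlapped (-1.08, SE 0.17, adjusted p = 0.00734, and -1.44, SE 0.17, adjusted p = 0.000305), and both calls held whichever array was left out. With the 6 shield arrays fitted alone in limma, the shield call was lost (adjusted p = 0.128). The other 3 probes gave -0.89, -0.84 and -0.75 at shield, none past the threshold, and -1.23, -0.54 and -0.62 at 90% epiboly, the first of which passed. In each knockdown comparison 1 of the 19 receptors passed, against 0.263% of all named genes lower at shield and 0.572% at 90% epiboly. At an unadjusted p under 0.05 there were 3 at each stage. With stage, 1 of the 19 rose and 1 fell in control MO embryos, and 1 rose and 0 fell in double MO embryos. *itga6a*, an alpha subunit of laminin receptors, rose with stage by 3.08 in control MO and 2.81 in double MO embryos (adjusted p = 3.51e-06 and 3.71e-06), and changed by 0.21 and -0.06 on knockdown. Of 10 hyaluronan and chondroitin genes (0 and 0 at an unadjusted p) and 10 matrix proteases and inhibitors (2 and 1), 0 passed in either knockdown comparison. The knockdown changes of the proteases and inhibitors ranged from -0.71 to 0.92 at shield (median 0.08). At 90% epiboly they ranged from -0.17 to 4.28 (median 0.18), and the highest did not pass. With stage, 3 of the 10 hyaluronan and chondroitin genes rose and 0 fell in control MO embryos (against 7.2% and 8.29% of all named genes). In double MO embryos 5 rose and 0 fell (against 7.89% and 8.23%). Of the 10 proteases and inhibitors 0 rose and 1 fell in each treatment. *mmp9*, a gelatinase gene, fell with stage by 1.21 in control MO and 1.83 in double MO embryos (adjusted p = 0.00375 and 0.000296).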

How the data were processed

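Whole-embryo RNA was labelled with a single dye and hybridised to Agilent zebrafish arrays. The authors deposited log2 values for 45220 probes, normalized between arrays; how they corrected the background and normalized, and with which software, is not stated in the sources read. Scanner output was left out. Of the probes, 26855 carried 1 gene symbol and 18365 none; 26837 were matched to a RefSeq gene table to update old symbols. All probes of the 12 arrays entered a linear model of the 4 groups in limma 3.58.1 in R 4.3.3 (8 residual and 5.32 prior degrees of freedom), with Benjamini-Hochberg adjustment over all probes, a threshold of 0.05 and no filter. The comparisons were knockdown at each stage, their difference, and stage within each treatment. The script was tested on simulated data for the shield knockdown comparison. It recovered 1 of 50 changes of 0.5 log2 units, 20 of 50 of 1 and 50 of 50 of 2, so a doubling could often be missed. In the same simulation 11 probes that had been given no change were called. Alternatives changed the scaling, filter, variance model, arrays or test. A Student's t-test, which the methods name for quantitative data in general, was run on the same values. For the array analysis itself the methods refer to an earlier study. Same-numbered shield samples deviated together (correlations 0.34, 0.35 and 0.30), those at 90% epiboly did not all (0.20, 0.08 and 0.41); the labels do not say what a number marks. Nothing says that samples came from separate clutches, so p-values measure the spread between these pools.

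Named with every sample's value were members past the threshold in any comparison on the brightest probe, and all prolyl and lysyl hydroxylases, fibronectins, hyaluronan synthases, *sparc* and the chains of laminin-111 and laminin-511; the 5 brightest of the others were named, and list genes that passed on knockdown. *loxa* and the list genes named for stage or as partners were chosen after their values were seen. Members and lists were chosen with earlier results of these data known. No sequence is shown, and no coordinates are given.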

Additional observations from a re-analysis of the deposited data

Results flagged for a closer look

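The test of the difference between the stages in the knockdown change passed on 2 of the 4 probes of *fn1b*: subtracting the shield change from the later one gave -1.96 on probe 2 and -1.31 on probe 4 (log2 scale, limma adjusted p = 0.0118 and 0.018). Both probes were dim at shield in both treatments (means 6.42 and 6.04 on probe 2, 5.82 and 5.49 on probe 4, with 6.56 the 40th percentile of all probes), so a fall at shield might not have shown on them. The brightest probe, at 9.61 and 9.21 at shield, gave -0.92 and did not pass (adjusted p = 1), nor did probe 3 (-1.60), so a difference between the stages is not established. Groups of 3 samples are too small for a formal test of single outlying samples, and arrays were only left out in turn.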

How the results depend on the processing

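Of 1026 values that 48 named fold changes took under the alternatives, 852 kept their direction and their side of the threshold, 172 kept the direction and lost the call, 1 gained it and 1 changed sign. The sign change was *p4ha1a* at 90% epiboly, which ranged from -1.63 to 0.10 over the arrays left out and was 0.10 without 90% double MO 1. The gain was *fn1b* in the test of the difference between stages with its probes averaged (-1.45, adjusted p = 0.00573), which made the count of members there 1 in place of 0. The Student's t-test, which has 4 degrees of freedom a probe, gave 0 members after adjustment in both knockdown comparisons and in both stage comparisons, in place of 1, 3, 12 and 12, with 5, 6, 12 and 19 members at an unadjusted p under 0.05. With each array left out in turn the counts ranged from 1 to 1 (knockdown at shield), 0 to 3 (knockdown at 90% epiboly), 0 to 0 (their difference), 7 to 13 (stage in control MO) and 6 to 14 (stage in double MO).

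With the replicate number as a block, the members past the threshold were 1, 2, 0, 12 and 12 in that order. *p4ha2* at 90% epiboly (-0.74, adjusted p = 0.0799), the second probe of *p4ha1b* there (-1.12, 0.0608), and *col17a1a* (-0.91, 0.0582) and *col27a1a* (0.65, 0.054) with stage in double MO embryos lost their calls; no other named call was lost, and at shield, where same-numbered samples deviated together, *p4ha2* kept its call (-1.55, 0.000811). The cause of these differences was not tested. For the 21 of 52 genes whose brightest probe lay under 6.56, the 40th percentile of probes, how much of the signal is background is not known from the values at hand. The 3 samples a group limit the precision. Stage changes of partner genes and of dimmer probes other than those of the fibronectins were not recomputed under the alternatives.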
